A study of Homo sapiens with 48 samples.

Results

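GAS5 and 9 small nucleolar RNA host genes, SNHG1, SNHG5, SNHG6, SNHG7, SNHG8, SNHG12, SNHG15, SNHG16 and SNHG19, were followed across 16 groups of H1975 cells. They were taken by symbol from a table of raw counts, which held all 10 of them among 27978 symbols. All 10 passed the filter on low counts that left 15789 genes for testing.

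Small nucleolar RNAs (snoRNAs) guide the chemical modification of ribosomal RNA, box C/D snoRNAs for methylation and box H/ACA snoRNAs for pseudouridylation. In a host gene the snoRNAs lie in introns and are released when the transcript is spliced, while the joined exons leave as a long RNA without a known conserved protein product. Several host transcripts begin with a run of pyrimidines, the 5′ terminal oligopyrimidine (TOP) tract of ribosomal protein mRNAs, and are destroyed by nonsense-mediated decay once ribosomes engage them. GAS5, growth arrest specific 5, was named for its RNA building up in cells that stop growing.

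H1975 is an established human non-small cell lung cancer line with mutated EGFR. It was given gefitinib, an inhibitor of the EGFR kinase, a herbal preparation called compound kushen injection (CKI), a preparation that the labels name only as YFSJ, or gefitinib with either preparation. The 14 treated groups, all at 24 h, comprised 2 doses of gefitinib alone (50 and 75 µM), 2 of CKI alone (1 and 2 mg/mL), 2 of YFSJ alone (2.5 and 5 mg/mL), and every pairing of these gefitinib doses with these doses of CKI or YFSJ, 8 groups. They were set against untreated cells at 24 h, and untreated cells at 24 h were set against untreated cells at 0 h. Each group had 3 libraries of cells in serum-supplemented medium, which the labels call biological replicates of 1 line.

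Libraries held 16428398 to 26264162 counts, so that 3 counts, taken as the floor of detection for counting error only, came to 0.114 to 0.183 counts per 1000000 counts of the library (CPM). The lung lineage gene NKX2-1 had a median of 44.7 CPM and EGFR 96.5 CPM, against 0.125 CPM for ESR1 and 0 counts in every library for PGR. ESR1 and PGR were checked because a catalogue number in the labels is that of MCF-7, a breast cancer line. Libraries 1 and 2 of untreated cells at 0 h and library 2 of YFSJ at 2.5 mg/mL with gefitinib at 75 µM stood apart from their groups: the share of the mitochondrial rRNA gene RNR2 was 1.22%, 1.69% and 2.18% in them, against 0.457% in the third library at 0 h and 0.811% and 0.957% in the other libraries of the combination. Differences are log2 fold changes of TMM-scaled counts from edgeR's quasi-likelihood test of all 48 libraries in 1 fit, with Benjamini-Hochberg adjustment over all tested genes, and a gene is said to rise, fall or pass where the adjusted p is under 0.05. A further 10 libraries held over 1000 counts of ALB, the serum albumin gene, against 8 counts at most in the other 38: all 3 of CKI at 2 mg/mL with gefitinib at 75 µM, libraries 1 and 3 of CKI at 2 mg/mL with gefitinib at 50 µM, libraries 2 and 3 of CKI at 1 mg/mL with gefitinib at 75 µM, and all 3 of YFSJ at 2.5 mg/mL. The summed level of 12 liver transcripts was 235 to 322 CPM in these 10 and 44.2 to 96.4 CPM in the others, where the median was 0 CPM for APOB, APOA2, APOC3, TTR, FGA, FGB, FGG and AHSG, and 11 of the 12 rose in CKI at 2 mg/mL with gefitinib at 75 µM against gefitinib alone. Most of the sum in the other 38 libraries was SERPINA1, with a median of 65.4 CPM there and 73.3 CPM in the 10. In RNA of a whole culture, less of a transcript in each cell and fewer cells that make it cannot be told apart.

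The sequences around the annotated starts are shown because the TOP tract is a feature of this class of genes. RefSeq promoter entries on GRCh38.p14 matched 8 of the 10 symbols, and for these 8 the 30 bases before the start and the 30 bases from it are printed 5′ to 3′ on the gene's own strand. Capitals mark an unbroken run of at least 7 C or T that begins within 10 bases of the start. SNHG12, host of SNORA16A, SNORA44, SNORA61 and SNORD99, and SNHG16, host of SNORD1A, SNORD1B and SNORD1C, held such a run. So did SNHG1, host of SNORD22 and SNORD25 to SNORD31, and SNHG19, host of SNORD60. SNHG5, SNHG7, SNHG8 and GAS5 held no run of that length. In SNHG5, SNHG7 and SNHG8 a shorter run of C or T, in small letters, spans the annotated start. The marked runs of SNHG1 and SNHG16 begin 4 and 3 bases after it. The search therefore does not sort the hosts into those with and without a TOP tract.
SNHG12 (chr1:28581844-28581903, minus strand): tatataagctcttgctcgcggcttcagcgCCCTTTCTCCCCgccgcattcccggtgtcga
SNHG16 (chr17:76557734-76557793, plus strand): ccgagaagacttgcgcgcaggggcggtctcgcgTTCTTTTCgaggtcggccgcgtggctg
SNHG1 (chr11:62855856-62855915, minus strand): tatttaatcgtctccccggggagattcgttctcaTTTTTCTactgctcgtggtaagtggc
SNHG19 (chr16:2155329-2155388, minus strand): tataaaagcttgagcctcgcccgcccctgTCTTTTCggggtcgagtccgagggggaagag
SNHG5 (chr6:85678704-85678763, minus strand): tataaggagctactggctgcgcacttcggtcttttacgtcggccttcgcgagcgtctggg
SNHG7 (chr9:136728155-136728214, minus strand): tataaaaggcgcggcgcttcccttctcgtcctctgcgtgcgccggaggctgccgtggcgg
SNHG8 (chr4:118278732-118278791, plus strand): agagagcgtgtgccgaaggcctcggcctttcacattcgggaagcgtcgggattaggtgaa
GAS5 (chr1:173869016-173869075, minus strand): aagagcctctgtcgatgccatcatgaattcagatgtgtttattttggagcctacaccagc

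The run was found at 4 of the 8 entries and at 15.8% of all 35114 promoters in that table. Over the 250 bases before and 50 bases after the start, CACGTG, the letters of an E-box, occurred in the entry of SNHG7 alone among the 8, against 7.26% of all promoters. TGATGNAA, the letters of an element bound by ATF4 and C/EBP proteins, searched on both strands, occurred in none of the 8 and in 3.62% of all promoters. A match describes letters near an annotated start and does not show binding, and starts used in these cells were not measured. Only the listed start of each gene was searched, while GENCODE holds 29 transcripts of GAS5. Whether the listed GAS5 start is the one in use was not tested, so the missing run holds for that entry only.

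The hosts differed in level. In untreated cells at 24 h, CPM per kilobase of the longest annotated transcript was highest for SNHG5, host of SNORD50A and SNORD50B, at 343, followed by SNHG6, host of SNORD87, at 167. SNHG19 had 92.5 CPM per kilobase, SNHG8 58.9, SNHG7 44.5, SNHG16 35.9 and SNHG1 25.0. SNHG15, GAS5 and SNHG12 were the lowest at 15.7, 13.5 and 7.93 CPM per kilobase. The isoforms in use were not measured, so this order rests on the annotation. Across the 16 group means the ratio of the highest to the lowest was 6.17 for GAS5, 4.87 for SNHG8, 4.63 for SNHG12 and 4.09 for SNHG7, and 1.46 for SNHG16. Untreated cells at 0 h were the lowest group for 8 of the 10 genes, and libraries 1 and 2 of that group stood apart. Without the 3 libraries apart the ratio was 4.45 for GAS5, 3.53 for SNHG8, 3.35 for SNHG7, 3.05 for SNHG15, 2.49 for SNHG12 and 1.46 for SNHG16.

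**Figure D1:**
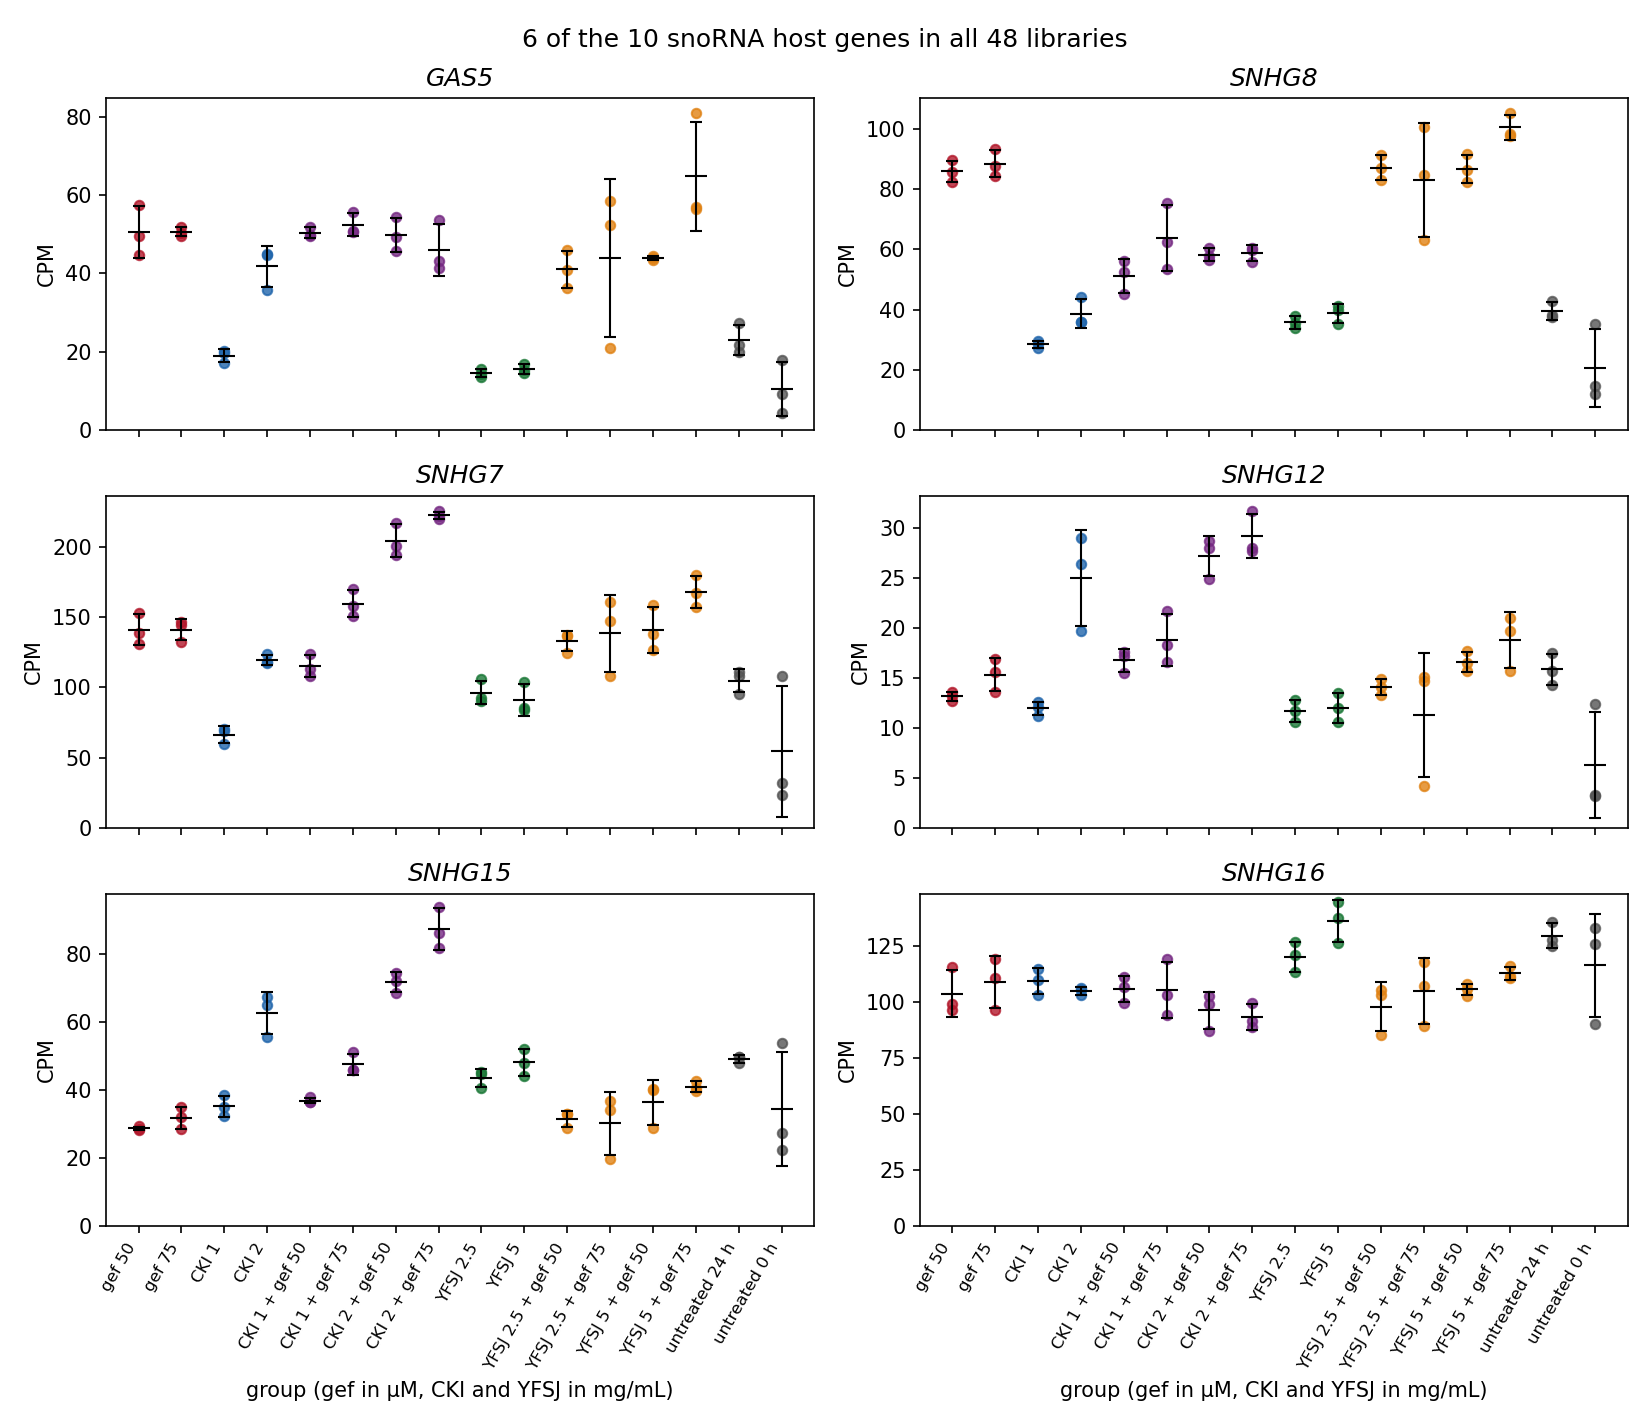
CPM of 6 host genes in all 48 libraries, 1 panel per gene, with points for libraries and a bar with whiskers for the mean and SD of 3 libraries in each group on the horizontal axis. SNHG8 has all libraries of the 10 groups with gefitinib above the untreated 24 h libraries, GAS5 has the same in all but library 2 of YFSJ at 2.5 mg/mL with 75 µM, SNHG7, SNHG12 and SNHG15 are highest with CKI at 2 mg/mL plus gefitinib, and SNHG16 varies least, with library values of 85.0 to 144 CPM.

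Gefitinib alone, at 50 and 75 µM, was compared with untreated cells, and whether any change came through EGFR was not tested. GAS5, SNHG8 and SNHG5 rose and SNHG15 and SNHG16 fell at both doses. Of the 10 hosts, 5 passed the test at 75 µM, where 54.7% of all tested genes passed, and 5 of 10 at 50 µM, where 54.4% passed, so the share of hosts was close to that of all genes. With those 3 libraries left out, 7 and 8 of 10 passed, against 56.3% and 56% of all genes. The median log2 fold change of the 10 hosts at 75 µM was 0.08, beside 0.02 over all genes.

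GAS5, whose introns hold 10 box C/D snoRNAs, had 49.7, 52.0 and 50.3 CPM with gefitinib at 75 µM, against 19.9, 27.3 and 21.7 CPM in untreated cells (log2 fold change 1.15, SE 0.26, adjusted p = 0.000289). At 50 µM it had 49.5, 44.7 and 57.6 CPM (log2 fold change 1.15, SE 0.26, adjusted p = 0.000292). All 6 gefitinib libraries lay above all 3 untreated ones. The share of all genes whose groups separated in this way was not counted, here or in the comparisons below. SNHG8, host of SNORA24, had 93.3, 87.7 and 84.3 CPM with gefitinib at 75 µM, against 42.9, 37.6 and 38.1 CPM in untreated cells (log2 fold change 1.16, SE 0.19, adjusted p = 2.53e-06). With 50 µM its log2 fold change was 1.12 (adjusted p = 4.68e-06). The groups did not overlap at either dose.

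SNHG5 had 484, 483 and 484 CPM with gefitinib at 75 µM, against 355, 349 and 356 CPM in untreated cells (log2 fold change 0.45, SE 0.17, adjusted p = 0.0209). Its 50 µM libraries were higher than all 6 of these, at 495, 518 and 498 CPM (log2 fold change 0.51, SE 0.17, adjusted p = 0.00954). The call at 75 µM was lost without untreated library 2 (0.44, adjusted p = 0.0526). SNHG15, host of SNORA9, went the other way, with 29.2, 28.4 and 28.2 CPM at 50 µM and 34.9, 31.9 and 28.5 CPM at 75 µM, against 47.8, 49.7 and 49.6 CPM in untreated cells. It fell by 0.78 on the log2 scale at 50 µM (SE 0.18, adjusted p = 0.000378) and by 0.63 at 75 µM (adjusted p = 0.00334). No gefitinib library reached the lowest untreated one, and these calls held in each of the 6 fits that left out 1 library.

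SNHG16 had 96.1, 99.2 and 116 CPM with gefitinib at 50 µM and 119, 110.3 and 96.2 CPM at 75 µM, against 128, 136 and 125 CPM in untreated cells. The log2 fold changes were -0.32 and -0.25 (adjusted p = 0.0106 and 0.0433). This small fall was not called with library-size scaling (-0.21 and -0.16), nor at 75 µM in 5 of the 6 fits that left out 1 library, those without untreated library 1, 2 or 3 or gefitinib library 2 or 3 (-0.33 to -0.17 over the 6 fits), nor at 50 µM without gefitinib library 1 (-0.27, adjusted p = 0.0611). The other 5 hosts did not pass at either dose: at 75 µM the log2 fold changes were 0.43 for SNHG7, 0.20 for SNHG6, -0.05 for SNHG12, -0.25 for SNHG19 and -0.50 for SNHG1. SNHG7 and SNHG1 passed when the 3 libraries apart were left out (0.44 with adjusted p = 3.44e-05, and -0.49 with adjusted p = 0.00371). Between 75 and 50 µM 0 of the 10 passed in edgeR, 0 at an unadjusted p under 0.05 and 0 in DESeq2, against 0.0317% of all genes; the log2 differences ran from -0.06 for SNHG5 (95% interval -0.40 to 0.28) to 0.22 for SNHG12 (95% interval -0.37 to 0.81).

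CKI alone was compared with untreated cells at both doses. GAS5 and SNHG12 rose and SNHG16 fell at 2 mg/mL, while SNHG1, SNHG15 and SNHG6 fell at 1 mg/mL. That made 3 of 10 hosts called at 2 mg/mL, against 51.2% of all genes, and 3 of 10 at 1 mg/mL, against 27.9% of all genes. Without the 3 libraries that stood apart the counts were 6 of 10 (4 higher and 2 lower) against 53.3% and 7 of 10 (all lower) against 31.9%.

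GAS5 had 44.8, 35.8 and 44.9 CPM with CKI at 2 mg/mL, against 19.9, 27.3 and 21.7 CPM in untreated cells (log2 fold change 0.87, SE 0.26, adjusted p = 0.00508). With CKI at 1 mg/mL it had 19.8, 20.1 and 17.1 CPM, which overlapped the untreated libraries (log2 fold change -0.27, SE 0.26, adjusted p = 0.491). The direct test between the doses found GAS5 higher at 2 mg/mL than at 1 mg/mL (log2 fold change 1.14, SE 0.26, adjusted p = 0.000884). SNHG12 had 26.4, 19.7 and 29.0 CPM at 2 mg/mL and 11.2, 12.6 and 12.1 CPM at 1 mg/mL, against 14.3, 17.5 and 15.7 CPM in untreated cells. Its rise at 2 mg/mL was near the threshold (log2 fold change 0.66, SE 0.28, adjusted p = 0.0459) and was lost in 5 of 6 fits that left out 1 library, those without untreated library 1, 2 or 3 or CKI library 1 or 3 (0.54 to 0.81), and with the replicate number as a block (0.65, adjusted p = 0.0515). Its difference between 2 and 1 mg/mL was larger (log2 fold change 1.06, SE 0.28, adjusted p = 0.0036) and held in all 6 such fits.

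SNHG15 had 67.2, 55.6 and 64.8 CPM with CKI at 2 mg/mL and 38.4, 34.8 and 32.2 CPM at 1 mg/mL, against 47.8, 49.7 and 49.6 CPM in untreated cells. All libraries at 2 mg/mL were above the untreated ones and all at 1 mg/mL were below them. The fall at 1 mg/mL passed (log2 fold change -0.48, SE 0.18, adjusted p = 0.0394), the difference at 2 mg/mL did not (log2 fold change 0.35, SE 0.18, adjusted p = 0.0937), and the doses differed from each other (log2 fold change 0.83, SE 0.18, adjusted p = 0.000388). SNHG7, host of SNORA17A and SNORA17B, had 124, 118 and 117 CPM at 2 mg/mL and 69.1, 70.6 and 59.5 CPM at 1 mg/mL, against 95.3, 108 and 111 CPM in untreated cells. Neither dose passed against untreated cells (0.19 and -0.66), but 2 mg/mL was higher than 1 mg/mL (log2 fold change 0.85, SE 0.26, adjusted p = 0.0103). Without the 3 libraries apart both doses passed for SNHG7, 2 mg/mL as higher (0.24, adjusted p = 0.0188) and 1 mg/mL as lower (-0.63, adjusted p = 1.97e-07). In all, 4 of 10 hosts were higher at 2 mg/mL than at 1 mg/mL and none was lower, against 15.1% of all genes higher and 17.6% lower. Of all genes called between the doses 46.3% were higher, and 69.9% with library-size scaling, under which 7 of the 10 hosts passed. Without the 3 libraries apart the count was 7 of 10, all higher, with 18.5% of all genes higher.

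The falls at 1 mg/mL were those of SNHG1 (40.5, 38.9 and 38.0 CPM, against 65.4, 81.8 and 60.1 CPM in untreated cells; log2 fold change -0.82, SE 0.29, adjusted p = 0.0318), SNHG15 and SNHG6 (90.9, 76.9 and 72.0 CPM, against 99.0, 113 and 112 CPM; log2 fold change -0.44, SE 0.13, adjusted p = 0.00743). No CKI library reached the untreated ones for these 3 genes. The same held for SNHG7, SNHG8, SNHG12, SNHG16 and SNHG19, which did not pass, so this separation does not mark the called genes. Each call was lost in 1 or more of the fits that left out 1 library, with the direction kept. SNHG6 was lost without CKI library 3 (-0.37). SNHG1 was lost in all such fits but the one without untreated library 3 (-0.91 to -0.68), and SNHG15 in all but the one without CKI library 1 (-0.55 to -0.42). SNHG16 had 105, 103 and 106 CPM at 2 mg/mL, against 128, 136 and 125 CPM in untreated cells (log2 fold change -0.30, SE 0.11, adjusted p = 0.0159), a fall not called with library-size scaling, which moves the median of all genes up by 0.198 in this comparison (-0.10) or without untreated library 2 (-0.27). SNHG15 at 1 mg/mL was not called with that scaling either (-0.40).

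CKI was next added to gefitinib, and each combination was compared with untreated cells and with the same dose of gefitinib alone. With CKI at 2 mg/mL and gefitinib at 75 µM, GAS5, SNHG7, SNHG12, SNHG15 and SNHG8 rose and SNHG16 fell against untreated cells, 6 of 10 hosts where 62.1% of all genes passed. The same 6 genes passed in the same directions with gefitinib at 50 µM, where 58.1% of all genes passed. With CKI at 1 mg/mL, 5 of 10 passed at 75 µM and 4 of 10 at 50 µM, against 59.8% and 54.9% of all genes. Leaving out the 3 libraries apart, 7 of 10 passed in each of these 4 groups, against 63.6% and 59.9% of all genes with CKI at 2 mg/mL and 75 or 50 µM and 61.6% and 56.8% with 1 mg/mL.

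Against untreated cells, SNHG7 had 222, 220.1 and 225 CPM with CKI at 2 mg/mL and gefitinib at 75 µM, against 95.3, 108 and 111 CPM (log2 fold change 1.08, SE 0.25, adjusted p = 0.000413). At 50 µM its log2 fold change was 0.96 (adjusted p = 0.00158). SNHG12 had 31.7, 28.0 and 27.7 CPM at 75 µM and 24.9, 28.0 and 28.7 CPM at 50 µM, against 14.3, 17.5 and 15.7 CPM in untreated cells. All 6 of these libraries were above the untreated ones for both genes. The rise of SNHG12 at 50 µM (log2 fold change 0.78, SE 0.28, adjusted p = 0.0153) was lost without untreated library 1 (0.71, adjusted p = 0.0582), and that at 75 µM (log2 fold change 0.88, SE 0.28, adjusted p = 0.00604) held in each of the 6 fits. SNHG16 had its lowest group mean in the series with CKI at 2 mg/mL and gefitinib at 75 µM, 99.5, 91.4 and 88.7 CPM, against 128, 136 and 125 CPM in untreated cells (log2 fold change -0.47, SE 0.11, adjusted p = 0.000198).

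With CKI at 1 mg/mL, GAS5 had 50.7, 50.9 and 55.8 CPM at 75 µM gefitinib and 49.9, 49.5 and 52.0 CPM at 50 µM, against 19.9, 27.3 and 21.7 CPM in untreated cells (log2 fold change 1.20 and 1.14, adjusted p = 0.000145 and 0.00029). No library of either combination overlapped the untreated ones. SNHG8 rose at 75 µM as well (0.69, adjusted p = 0.00199). The other calls at 1 mg/mL were near the threshold: SNHG7 at 75 µM (0.61, adjusted p = 0.0385; 0.54 to 0.65) and SNHG15 at 50 µM (-0.41, adjusted p = 0.0455; -0.43 to -0.40) were lost in all 6 fits that left out 1 library. SNHG1 at 50 µM (-0.71) was lost in all but the fit without untreated library 3 (-0.80 to -0.58), and SNHG19 at 75 µM (-0.78) without untreated library 3 or combination library 1 (-0.89 to -0.68). SNHG16 at 75 µM (-0.30) was lost without untreated library 2 or combination library 1 (-0.39 to -0.22), and at 50 µM (-0.29) without untreated library 2 or combination library 3 (-0.33 to -0.25).

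SNHG15 was the host that differed most from gefitinib alone. It had 93.8, 81.8 and 86.1 CPM with CKI at 2 mg/mL and gefitinib at 75 µM, against 34.9, 31.9 and 28.5 CPM with gefitinib at 75 µM alone (log2 fold change 1.46, SE 0.18, adjusted p = 9.12e-09). At 50 µM it had 68.4, 74.2 and 72.0 CPM with CKI at 2 mg/mL, against 29.2, 28.4 and 28.2 CPM without (log2 fold change 1.32, SE 0.18, adjusted p = 8.94e-08). In untreated cells it had 47.8, 49.7 and 49.6 CPM, so that the combinations lay above, and gefitinib alone below, every untreated library. CKI at 1 mg/mL added to 75 µM gave 51.0, 45.7 and 45.7 CPM (log2 fold change 0.58 against 75 µM alone, adjusted p = 0.0105), a call lost without gefitinib library 3 (0.51). Library 2 of CKI at 2 mg/mL with gefitinib at 50 µM, the 1 library of that group with few ALB counts, had 74.2 CPM of SNHG15. Libraries 1 and 3 of the group, with high ALB counts, had 68.4 and 72.0 CPM. Every library of CKI at 2 mg/mL with gefitinib at 75 µM had high ALB counts, and no library of gefitinib alone did. The part of ALB-rich libraries in the SNHG15 difference therefore cannot be read from 1 library. With a batch term for high ALB counts the SNHG15 call at 75 µM was kept. That term is set by the groups that held both kinds of library.

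SNHG12 had 31.7, 28.0 and 27.7 CPM with CKI at 2 mg/mL and gefitinib at 75 µM, against 15.5, 16.8 and 13.5 CPM with gefitinib alone (log2 fold change 0.93, SE 0.28, adjusted p = 0.00463). At 50 µM the values were 24.9, 28.0 and 28.7 CPM with CKI at 2 mg/mL, against 13.2, 12.7 and 13.6 CPM without (log2 fold change 1.05, SE 0.28, adjusted p = 0.00191). The groups did not overlap at either dose. SNHG7 reached its highest values of the series in the same groups, 222, 220.1 and 225 CPM with CKI at 2 mg/mL and gefitinib at 75 µM, against 146, 132 and 144 CPM with gefitinib alone (log2 fold change 0.66, SE 0.25, adjusted p = 0.0253). This SNHG7 call was lost without gefitinib library 2 or 3 or combination library 3 (0.61 to 0.68), and with a batch term for high ALB counts (0.80, adjusted p = 0.0769). The SNHG12 call at 75 µM was kept with the batch term. At 50 µM SNHG7 was 0.53 against gefitinib alone (adjusted p = 0.0722). SNHG1 was 0.65 at 75 µM and 0.59 at 50 µM and passed at neither dose (adjusted p = 0.052 and 0.0837), and at both without the 3 libraries apart (0.68 and 0.61).

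SNHG8 and SNHG5, which rose with gefitinib alone, fell when CKI at 2 mg/mL was added, and SNHG8 also with 1 mg/mL. SNHG8 had 55.9, 60.5 and 59.9 CPM with CKI at 2 mg/mL and gefitinib at 75 µM, against 93.3, 87.7 and 84.3 CPM with gefitinib alone (log2 fold change -0.59, SE 0.19, adjusted p = 0.00675). With CKI at 1 mg/mL and gefitinib at 50 µM it had 56.0, 52.6 and 45.0 CPM, against 82.2, 85.8 and 89.5 CPM with gefitinib alone (log2 fold change -0.75, SE 0.19, adjusted p = 0.00205). SNHG8 stayed above untreated cells in 3 of the 4 combinations by the test (0.69, 0.56 and 0.57), and CKI at 1 mg/mL with gefitinib at 50 µM was at 0.37 (adjusted p = 0.0945). The falls with CKI at 2 mg/mL were not called with a batch term for high ALB counts (-0.43 at 75 µM and -0.45 at 50 µM), while the 3 libraries of CKI at 1 mg/mL with gefitinib at 50 µM held few ALB counts. At 1 mg/mL with 75 µM the fall of SNHG8 (-0.47, adjusted p = 0.0451) was lost without any 1 of the 3 gefitinib libraries or combination library 2 or 3 (-0.61 to -0.36). SNHG5 had 350.0, 359.8 and 343 CPM with CKI at 2 mg/mL and gefitinib at 75 µM, against 484, 483 and 484 CPM with gefitinib alone (log2 fold change -0.46, SE 0.17, adjusted p = 0.0172). At 50 µM SNHG5 was at -0.46 (adjusted p = 0.0206), a call lost without gefitinib library 2 or combination library 1 (-0.47 to -0.44). The SNHG5 falls were not called with library-size scaling (-0.41 and -0.35), nor the one at 75 µM with the batch term (-0.53, adjusted p = 0.0805).

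GAS5 did not differ by the test when CKI joined gefitinib: it had 53.6, 41.4 and 43.2 CPM with CKI at 2 mg/mL and gefitinib at 75 µM, against 49.7, 52.0 and 50.3 CPM with gefitinib alone (log2 fold change -0.14, SE 0.25, adjusted p = 0.657, 95% interval -0.64 to 0.37). The intervals were -0.52 to 0.48 for CKI at 2 mg/mL with 50 µM, -0.45 to 0.55 for 1 mg/mL with 75 µM and -0.50 to 0.50 for 1 mg/mL with 50 µM. Over all 10 hosts, 5, 4, 2 and 1 passed in CKI at 2 mg/mL with 75 and 50 µM and 1 mg/mL with 75 and 50 µM, against 58.2%, 53.6%, 34.6% and 31.8% of all genes. Without the 3 libraries apart the counts were 6, 6, 5 and 5 of 10, against 60.6%, 56.4%, 38.6% and 36.1%.

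**Figure D2:**
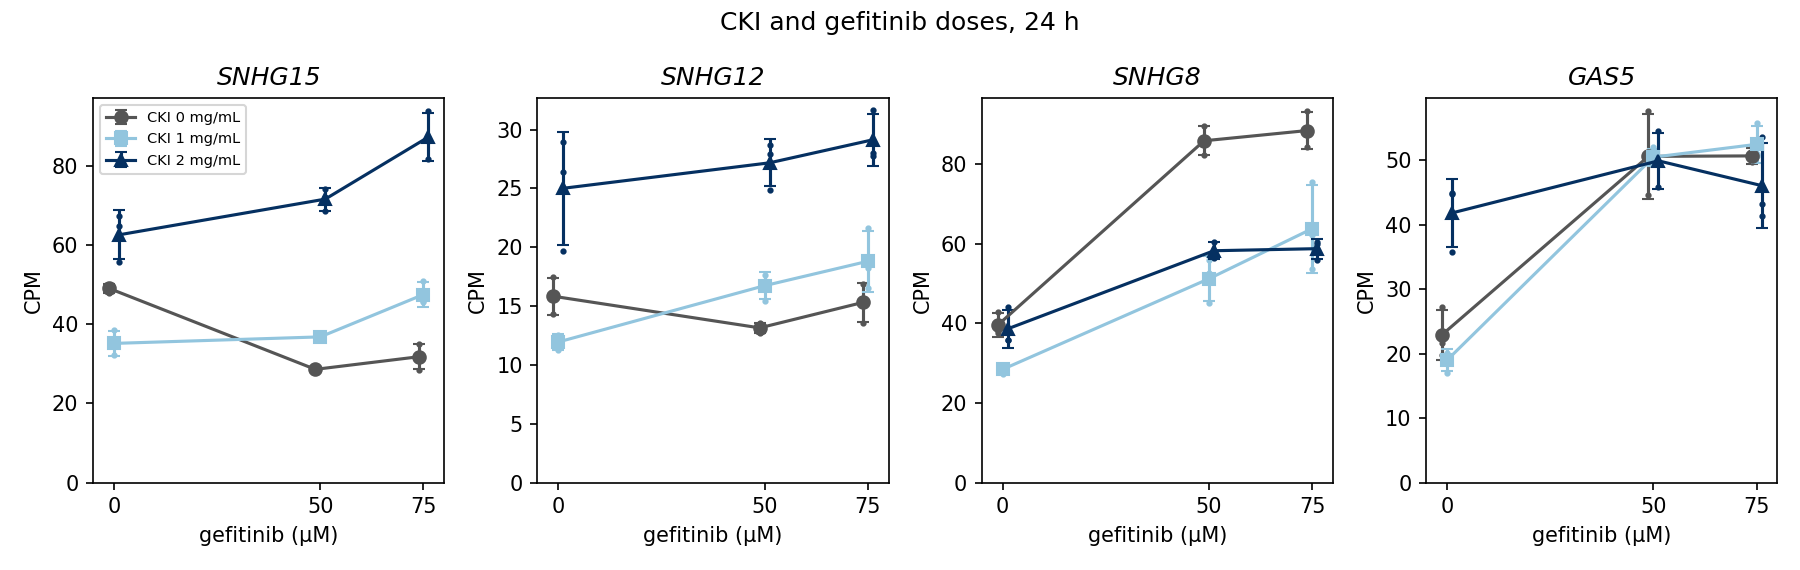
CPM of SNHG15, SNHG12, SNHG8 and GAS5 at 24 h against the gefitinib dose in µM, with 1 line for each CKI dose; large symbols and whiskers are the mean and SD of 3 libraries and small points are libraries. SNHG15 falls with gefitinib in the absence of CKI and is highest at both gefitinib doses with CKI at 2 mg/mL, where it averages 87.2 CPM at 75 µM.

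The interaction asks whether the log2 change with both agents departed from the sum of the changes with each, averaged over the 4 dose pairs. SNHG15 departed upward (log2 departure 1.00, SE 0.19, adjusted p = 4.09e-05, 95% interval 0.62 to 1.38), and this held in each of the 27 fits that left out 1 library. It also passed with the batch term for high ALB counts. SNHG5 departed downward (log2 departure -0.47, SE 0.18, adjusted p = 0.034), a call lost without untreated library 1, 2 or 3, library 1 of CKI at 1 mg/mL or library 1 of CKI at 2 mg/mL (-0.51 to -0.42), and with the batch term for high ALB counts (-0.51, adjusted p = 0.0586). These 2 of 10 stood beside 39.5% of all genes. Without the 3 libraries apart 8 of 10 passed, against 42.7% of all genes: SNHG15, SNHG1, SNHG12, SNHG7 and SNHG19 upward and SNHG5, GAS5 and SNHG8 downward. For YFSJ 0 of 10 passed in edgeR, against 1.7% of all genes, with 1 at an unadjusted p under 0.05 and 0 in DESeq2, and without those libraries 5 of 10 did, against 4.66%, all upward: GAS5 (0.59), SNHG12 (0.58), SNHG19 (0.55), SNHG5 (0.36) and SNHG15 (0.34).

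YFSJ alone changed none of the 10 hosts by the test in the fit of all 48 libraries, at 2.5 mg/mL, where 2.93% of all genes passed, or at 5 mg/mL, where 6.48% passed. DESeq2 also called 0 at both doses, and 4 of 10 had an unadjusted p under 0.05 in edgeR at each. GAS5 had 14.5, 16.9 and 15.4 CPM with YFSJ at 5 mg/mL and 14.4, 15.7 and 13.6 CPM at 2.5 mg/mL, against 19.9, 27.3 and 21.7 CPM in untreated cells. SNHG19 had 20.5, 19.0 and 19.0 CPM at 5 mg/mL and 21.9, 19.8 and 16.9 CPM at 2.5 mg/mL, against 26.8, 33.1 and 35.0 CPM in untreated cells. Every YFSJ library lay below every untreated library for both genes, and for SNHG5, SNHG6 and SNHG12 as well. The share of all genes separated in this way was not counted. In the fit of 45 libraries GAS5, SNHG12, SNHG19 and SNHG5 passed as lower at both doses and SNHG6 at 2.5 mg/mL, which made 4 of 10 against 11.2% of all genes at 5 mg/mL and 5 of 10 against 7.2% at 2.5 mg/mL. In that fit the log2 fold change at 5 mg/mL was -0.54 for GAS5 (adjusted p = 0.00514) and -0.69 for SNHG19 (adjusted p = 5.48e-05), close to -0.55 and -0.70 with all 48 libraries. What differed between the fits was the spread: the square root of the dispersion of GAS5 was 0.219 with 48 libraries and 0.10 with 45, and that of SNHG19 was 0.245 and 0.0897. Between 5 and 2.5 mg/mL 0 of 10 passed in either tool and 0 had an unadjusted p under 0.05, against 0.374% of all genes, with log2 differences from -0.08 for SNHG7 (95% interval -0.60 to 0.43) to 0.18 for SNHG16 (95% interval -0.04 to 0.39). All 3 libraries at 2.5 mg/mL held over 1000 ALB counts, and none at 5 mg/mL did.

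With YFSJ and gefitinib together the hosts that passed against untreated cells were mostly those of gefitinib alone. GAS5 and SNHG8 rose in all 4 combinations and SNHG15 and SNHG16 fell in 3 of them, all but 5 mg/mL with 75 µM. With YFSJ at 5 mg/mL and gefitinib at 75 µM, GAS5 had 81.0, 56.9 and 56.6 CPM, against 19.9, 27.3 and 21.7 CPM in untreated cells (log2 fold change 1.50, SE 0.26, adjusted p = 7.17e-06), and SNHG8 had 105, 98.3 and 97.7 CPM, against 42.9, 37.6 and 38.1 CPM (log2 fold change 1.34, SE 0.19, adjusted p = 1.81e-07). These were the highest group means of both genes in the series. SNHG5 (0.61), SNHG7 (0.68) and SNHG6 (0.33) passed there too; SNHG7 lost its call without untreated library 1 or combination library 3 (0.61 to 0.74), and SNHG6 without untreated library 1 or combination library 1 or 3 (0.26 to 0.42). With 5 mg/mL and 50 µM, SNHG15 (-0.43) lost its call without any 1 untreated library or combination library 3 (-0.51 to -0.29), and SNHG16 (-0.30) without untreated library 2 or combination library 3 (-0.32 to -0.26). SNHG5 with 2.5 mg/mL and 50 µM (0.42) was lost without any 1 untreated library or combination library 2 or 3 (0.39 to 0.45). In all 5 of 10 passed with YFSJ at 5 mg/mL and 75 µM, 4 with 5 mg/mL and 50 µM, 5 with 2.5 mg/mL and 75 µM and 5 with 2.5 mg/mL and 50 µM, against 52.5%, 54.1%, 54.1% and 56.6% of all genes. The fit of 45 libraries called 7, 8, 7 and 8 in the same order, against 54.8%, 55.7%, 51.6% and 58%.

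Compared with the same dose of gefitinib alone, YFSJ changed 0 of the 10 hosts at each of the 4 dose pairs in edgeR and in DESeq2, with 1 host at an unadjusted p under 0.05 at 2.5 mg/mL with 75 µM and 0 at the others, where 0.0887% (2.5 mg/mL with 50 µM), 1.83% (2.5 with 75), 0.937% (5 with 50) and 3.46% (5 with 75) of all genes passed. The 95% interval for GAS5 was -0.14 to 0.86 with YFSJ at 5 mg/mL and gefitinib at 75 µM, and that for SNHG8 was -0.19 to 0.56. In the fit without the 3 libraries SNHG15 passed with YFSJ at 5 mg/mL added to 75 µM (0.37, adjusted p = 0.0138) and to 50 µM (0.34, adjusted p = 0.0493), 1 of 10 each, against 5.89% and 2.25% of all genes. In the combination with 2.5 mg/mL and 75 µM, library 2 had 20.9 CPM of GAS5 and 4.17 CPM of SNHG12, below 52.4 and 58.5 CPM of GAS5 and 14.7 and 15.1 CPM of SNHG12 in libraries 1 and 3. Leaving out this library removed the calls of SNHG19 (-0.60) and SNHG16 (-0.20) against untreated cells and added that of SNHG5 (0.46); SNHG16 was also lost without untreated library 2.

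**Figure D3:**
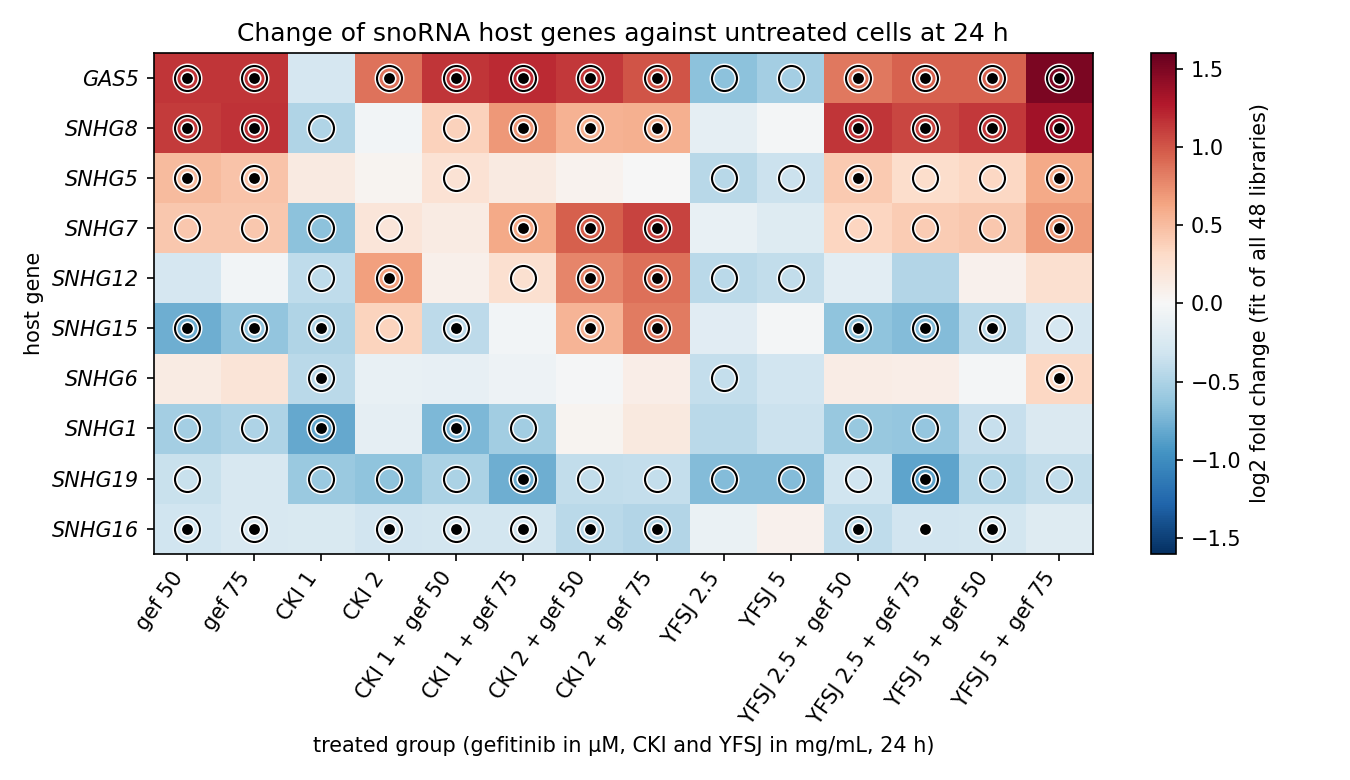
Log2 fold change of the 10 hosts (down the page) in each treated group (across) against untreated cells at 24 h, from the fit of all 48 libraries; a filled dot marks adjusted p under 0.05 in that fit and a ring marks it in the fit without the 3 libraries that stood apart. GAS5 is called higher in 11 of 14 groups and SNHG8 in 9, SNHG16 is called lower in 10, and SNHG15 is called lower in 7 and higher in 2.

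Over the 14 treated groups set against untreated cells at 24 h, which all share the same 3 untreated libraries, GAS5 was higher in 11, SNHG8 in 9, SNHG5 and SNHG7 in 4 each and SNHG12 in 3, with none of these 5 called lower in the fit of all 48 libraries. SNHG16 was lower in 10, and SNHG1 and SNHG19 in 2 each, with none higher. With library-size scaling SNHG16 was no longer called in 8 of its 10 groups, with log2 fold changes of -0.22 to -0.06 there. SNHG15 was higher in 2 and lower in 7, and SNHG6 was higher in 1 and lower in 1. The 7 falls of SNHG15 were in both gefitinib groups, CKI at 1 mg/mL alone and with gefitinib at 50 µM, and 3 of the YFSJ combinations, and the 2 rises were with CKI at 2 mg/mL plus gefitinib. In the fit of 45 libraries GAS5, SNHG5 and SNHG12 were also lower with YFSJ alone at both doses and SNHG7, SNHG8 and SNHG12 with CKI at 1 mg/mL. That made GAS5 higher in 11 and lower in 2, and SNHG8 and SNHG7 each higher in 10 and lower in 1. SNHG5 was higher in 7 and lower in 2, and SNHG12 was higher in 4 and lower in 3. In that fit SNHG19 was lower in 13 groups, SNHG1 in 8 and SNHG16 in 9. SNHG15 was higher in 3 and lower in 8, and SNHG6 was higher in 1 and lower in 2.

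Untreated cells at 24 h were set against untreated cells at 0 h. By the fit of all libraries, 9 of 10 hosts were higher at 24 h, all but SNHG16, against 10.8% of all genes higher and 14.4% lower, but these calls rest on libraries 1 and 2 at 0 h. SNHG19 had 26.8, 33.1 and 35.0 CPM at 24 h, against 4.02, 4.90 and 20.9 CPM at 0 h (log2 fold change 1.63, SE 0.29, adjusted p = 0.000204). GAS5 had 19.9, 27.3 and 21.7 CPM at 24 h, against 4.39, 9.31 and 17.8 CPM at 0 h (log2 fold change 1.10, SE 0.28, adjusted p = 0.00448), and SNHG7 had 95.3, 108 and 111 CPM, against 23.4, 32.2 and 108 CPM (log2 fold change 0.94, SE 0.26, adjusted p = 0.00798). Library 3 at 0 h lay well above the other libraries of its group for all 3 genes, and within the 24 h range for SNHG7. With library 3 alone at 0 h, 0 of 10 passed in edgeR, against 0.885% of all genes, where the spread comes from the other groups; the log2 difference was 0.58 for SNHG19 and 0.34 for GAS5, and turned negative for SNHG7 (-0.06), SNHG15 (-0.14) and SNHG1 (-0.10). Leaving out library 1 at 0 h alone ended the calls of 6 of the 9, and leaving out library 2 at 0 h those of 3. Without library 3 at 0 h all 9 calls held. Which of these libraries stands for the cells at 0 h was not tested.

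**Figure D4:**
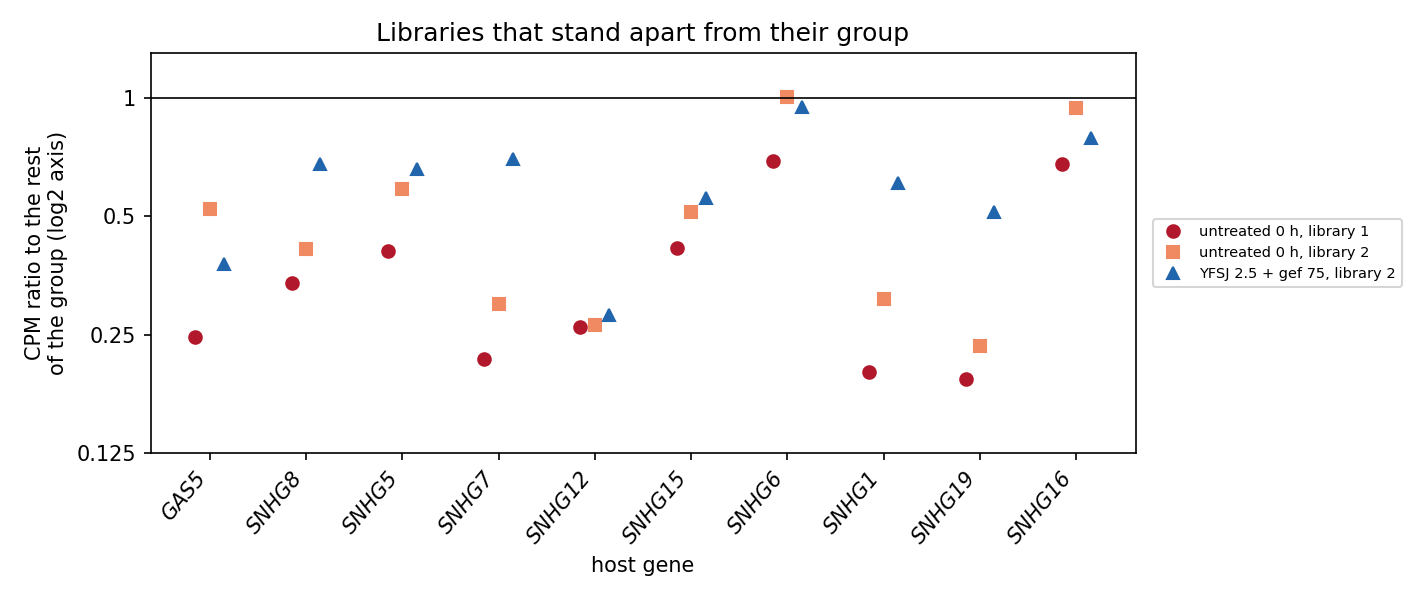
Ratio of each host's CPM in a library that stood apart to the mean CPM of the rest of its group, on a log2 axis, where the rest is library 3 for the untreated cells at 0 h and libraries 1 and 3 for the combination. The hosts are not shifted alike: SNHG19 is at 0.192 and 0.234 in the 0 h libraries, while SNHG6 is at 0.690 and 1.00 and SNHG16 at 0.678 and 0.945.

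The 10 hosts did not move as a block. Over the 16 group means of log2 CPM, the 45 pairs of hosts had Pearson correlations from -0.64 (GAS5 with SNHG16) to 0.90 (SNHG6 with SNHG8), with a median of 0.59 and 34 positive. Without the 0 h group the median was 0.26 and 30 were positive. These are descriptions over groups that share libraries of 1 experiment. Each host also had genes outside the list whose group means ran with it, among 11137 tested genes whose mean level reached 5 CPM. These values are the highest of 11137 correlations over 16 means, with 0 h included. How high such a value runs for any other gene was not measured, so they do not mark a shared class. The closest was HSPBAP1 for GAS5 (0.98), NAXD for SNHG7 (0.96), SDR39U1 for SNHG8 (0.96), CLK1 for SNHG12 (0.96), C1orf109 for SNHG15 (0.96) and MGST3 for SNHG5 (0.96). For SNHG16 it was ACP6 (0.93), for SNHG6 C9orf85 (0.92), for SNHG1 RABGGTB (0.92) and for SNHG19 HDHD3 (0.90). SNHG11, another snoRNA host, was the second closest to SNHG7 (0.95).

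The libraries do not keep strand, so that reads of a host cannot be told from those of a gene that overlaps it on the other strand. Only distances between starts were measured, and whether the genes below overlap the hosts was not tested. In the RefSeq table, the opposite-strand gene SLC3A2, the heavy chain of an amino acid transporter, starts 224 bases from SNHG1, TRAF7 424 bases from SNHG19 and ZBTB37 665 bases from the listed start of GAS5. SLC3A2 rose with gefitinib at 75 µM (0.81), with CKI at 2 mg/mL (1.55) and with both (1.84), where SNHG1 was at -0.50, -0.14 and 0.15 and passed in none. ZBTB37 was at -0.66 with gefitinib at 75 µM (adjusted p = 0.0622), where GAS5 rose. TRAF7 was at 0.20 with gefitinib at 75 µM (adjusted p = 0.133), where SNHG19 was at -0.25. Neither passed with CKI at 2 mg/mL alone (ZBTB37 0.09 and TRAF7 0.14). ZBTB37 fell with CKI at 2 mg/mL and gefitinib at 75 µM (-0.66, adjusted p = 0.0474), where GAS5 rose. TRAF7 rose there (0.30, adjusted p = 0.0203).

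Other genes around snoRNAs were counted from lists. Of 3 tested noncoding hosts outside the SNHG series, 2 rose and 1 fell with gefitinib at 75 µM; the rises were those of EPB41L4A-AS1 (70.6 CPM, against 20.6 CPM in untreated cells; 1.78) and ZFAS1 (292 CPM, against 168 CPM; 0.80). Both rose with CKI at 2 mg/mL as well (0.66 and 0.56), and ZFAS1 fell with YFSJ at 5 mg/mL (-0.34). Of 12 other tested SNHG genes, 2 rose and 3 fell with gefitinib at 75 µM, SNHG10 (-0.96) and SNHG4 (-1.12) among the falls. With CKI at 2 mg/mL 3 rose and 6 fell, SNHG10 (-0.96) and SNHG26 (-0.85) among the falls. None passed with YFSJ at 5 mg/mL (0 of 12), where 3 had an unadjusted p under 0.05 and 2 passed, as lower, without the 3 libraries apart. Of 33 protein-coding snoRNA hosts, 3 rose and 17 fell with gefitinib, 1 rose and 24 fell with CKI and 0 rose and 4 fell with YFSJ at these doses. CCT6A, a chaperonin subunit, was at -1.21 with gefitinib, RCC1 at -0.61 with CKI and RPL23, a ribosomal protein gene, at -0.37 with YFSJ. The coding hosts called with YFSJ were 6 without the 3 libraries apart, all lower, where 1832 of 16381 genes passed, 1179 of them higher. Over all genes tested, 27.6% rose and 27.1% fell with gefitinib at 75 µM, 24.1% and 27.1% with CKI at 2 mg/mL, and 4.28% and 2.2% with YFSJ at 5 mg/mL. With library-size scaling the share of called genes that were higher with CKI at 2 mg/mL was 69.0%, beside 47.1%.

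The genes of proteins that bind snoRNAs or assemble their particles fell with gefitinib: 17 of 18 were lower at 75 µM and 0 higher, with a median log2 fold change of -0.73 beside 0.02 over all genes. NOP56, a box C/D core protein, had 211 CPM with gefitinib at 75 µM, against 418 CPM in untreated cells (-0.99), and DKC1, the pseudouridine synthase of box H/ACA particles, had 177 CPM, against 327 CPM (-0.88). With CKI at 2 mg/mL, 1 of the 18 was higher and 11 lower, with NOP56 at -0.57 and RUVBL1, an assembly ATPase, at -0.65. Added to gefitinib at 75 µM, CKI at 2 mg/mL had 12 of the 18 higher and 1 lower than gefitinib alone. Of 35 ribosome biogenesis genes, 1 was higher and 30 lower with gefitinib at 75 µM, led by LYAR (-1.71) and PNO1 (-1.25). Of the 35, 5 were higher and 10 lower with CKI at 2 mg/mL, UTP20 at -1.0 and PES1 at -0.54. CKI at 2 mg/mL added to 75 µM had 25 higher and 3 lower than gefitinib alone. Over all genes 28.8% were higher and 29.4% lower in that comparison of CKI at 2 mg/mL added to 75 µM. With YFSJ at 5 mg/mL 0 of 18 and 0 of 35 passed in edgeR, with 1 and 5 at an unadjusted p under 0.05, and 0 and 3 passed without the 3 libraries apart. Of all genes 6.48% passed, and 11.2% without those libraries.

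Of 36 mRNAs with a TOP tract, 6 rose and 9 fell with gefitinib at 75 µM, NPM1 (-0.86) and FAU (-0.56) among the falls. Of all genes 27.6% rose and 27.1% fell there. With CKI at 2 mg/mL 0 rose and 27 fell, NPM1 (-0.78) and RPL7A (-0.58) among them, at a median of -0.34 beside -0.01 over all genes. Of all genes 24.1% rose and 27.1% fell with this dose of CKI. Without the 3 libraries apart 8729 of 16381 genes passed, 4573 of them higher. YFSJ at 5 mg/mL had 0 higher and 6 lower, or 13 lower without the 3 libraries apart, TPT1 (-0.32) among them. Of all genes 4.28% were higher and 2.2% lower. Without those libraries 1832 of 16381 genes passed, 1179 of them higher. The same shares stand beside the 2 lists that follow. Of 20 known targets of nonsense-mediated decay, 12 rose and 2 fell with gefitinib at 75 µM, 11 rose and 2 fell with CKI at 2 mg/mL, and 5 rose and 0 fell with YFSJ at 5 mg/mL (7 and 2 without the 3 libraries apart). GABARAPL1, an autophagy gene, was at 1.82 and UPP1, uridine phosphorylase, at 1.55 with gefitinib, and the stress genes SLC7A11 and ATF3 at 3.93 and 3.66 with CKI, where SLC7A11 had 181 CPM, against 11.8 CPM in untreated cells. Several of these targets are also induced at transcription under stress, and decay itself was not measured. Of 22 decay factors, 2 rose and 8 fell with gefitinib at 75 µM, EIF4A3 (-0.78) and RBM8A (-0.84) among the falls, 6 rose and 4 fell with CKI at 2 mg/mL, DCP1A (0.62) and SMG8 (0.35) among the rises, and 3 rose with YFSJ at 5 mg/mL; without the 3 libraries apart 9 rose and 5 fell with CKI.

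Of 23 regulators of TOP translation and mTORC1, 7 rose and 9 fell with gefitinib at 75 µM, EIF4E (-0.89) and RHEB (-0.56) among the falls. Of all genes 27.6% rose and 27.1% fell there. The shares were 24.1% and 27.1% with CKI at 2 mg/mL, and 4.28% and 2.2% with YFSJ at 5 mg/mL. With CKI at 2 mg/mL 6 rose and 3 fell, SESN2 (2.75) and DDIT4 (1.21), both inhibitors of mTORC1, among the rises, and with YFSJ at 5 mg/mL 2 rose, RPTOR (0.53) and SESN2 (0.35). The fit of 45 libraries had 4 higher and 1 lower with YFSJ, where 1832 of 16381 genes passed, 1179 of them higher. MYC, a transcription factor that drives ribosome production, fell with YFSJ at 5 mg/mL (954 CPM, against 1689 CPM in untreated cells; -0.83), where 0 of the 10 hosts passed with all 48 libraries and 4 of 10 passed, as lower, with 45.

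The snoRNAs themselves were not measured well. Of 33 snoRNA symbols inside the 10 hosts, 7 passed the filter on low counts, and the median count over the 48 libraries was 0 to 26.5. SNORD80, in GAS5, had the highest median, 26.5 counts, and SNORD31, in SNHG1, 24.5 counts. With gefitinib 0 of the 7 rose, and 1 fell at 75 µM and 5 at 50 µM, where 27.1% and 26.8% of all genes fell. At 50 µM SNORD80 (-1.15) and SNORD74 (-1.32) fell, beside their host GAS5 at 1.15, and SNORD31, SNORA16A and SNORA9 fell as well. With gefitinib at 75 µM SNORA9 fell (-1.17; 0.759 CPM, against 1.74 CPM in untreated cells), beside its host SNHG15 at -0.63. With CKI at 2 mg/mL SNORD74 rose, the 1 of the 7 that passed (1.57; 1.65 CPM, against 0.545 CPM), beside its host GAS5 at 0.87. Reads of an unspliced host transcript fall on the same bases, and mature snoRNAs are shorter than the fragments such libraries are made of, so these counts cannot be told apart from the host's.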

How the data were processed

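RNA of H1975 cells was sequenced in 48 libraries, 16 groups of 3 that the labels call biological replicates. The deposited table holds raw counts per gene symbol. Per the submitters' processing notes, Trim Galore 0.4.2, STAR 2.5.3a, edgeR and the hg19 build were used; per the labels' protocols the libraries were paired-end and not stranded. The counting tool and annotation are not given in the sources used here. Counts were filtered with filterByExpr (minimum count 10, minimum total 15), scaled by TMM and fitted with edgeR 4.0.16 in R 4.3.3 (robust quasi-likelihood, 1 mean per group, 32 residual degrees of freedom), with Benjamini-Hochberg adjustment over 15789 genes and calls at an adjusted p under 0.05; the pipeline was tested on simulated data. The floor of 3 counts and the intervals of 95% cover counting error and the spread between these libraries only.

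The 10 members and all gene lists were chosen with earlier results of these data known, so counts over lists are descriptions. All members were named. From each other list the 2 called genes with the smallest p in the direction most of the list moved were named for gefitinib at 75 µM, CKI at 2 mg/mL and YFSJ at 5 mg/mL, and for each member genes with the highest correlation of mean log2 CPM. Other factors (RLE, library size), DESeq2 1.42.0, no filter, a replicate block, a batch term for over 1000 ALB counts, leaving out each library and library 3 alone at 0 h were the alternatives tried; the fit of 45 libraries, with 16381 genes tested, was chosen after seeing the data. Start sequences come from RefSeq on GRCh38.p14, not the build of the counts, and transcript lengths from GENCODE. SNHG6 and SNHG15 starts were not analysed here, and 1 gene that the naming rule picks is not reported here.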

Additional observations from a re-analysis of the deposited data

Results flagged for a closer look

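The responses of SNHG15 and SNHG5 to gefitinib differed between cells with and without CKI by a test of the difference itself, the interaction over the 4 dose pairs in edgeR's quasi-likelihood test. For SNHG15 the departure from additive log2 changes was 1.00: CKI at 2 mg/mL with gefitinib at 75 µM averaged 87.2 CPM, gefitinib at 75 µM alone 31.8 CPM, CKI at 2 mg/mL alone 62.5 CPM and untreated cells 49.0 CPM. For SNHG5 it was -0.47: the same groups averaged 351, 484, 365 and 354 CPM. Beside these, 39.5% of all genes passed the same test. Of the 12 libraries with both agents 7 held over 1000 ALB counts. With a batch term for such libraries the SNHG5 departure was -0.51 (adjusted p = 0.0586), while SNHG15 still passed. The part of ALB-rich libraries in the result was not tested further.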

How the results depend on the processing

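The numbers of the 10 hosts that passed were within 1.5 times the count given above in all 28 comparisons with DESeq2 and with a replicate block, with relative log expression factors in 27, with the batch term for high ALB counts in 25, and with library-size scaling or no filter on low counts in 24 each. The exceptions were 1 host for CKI at 1 mg/mL with library-size scaling and 1 with no filter, 2 for CKI at 1 mg/mL with gefitinib at 50 µM with no filter, 3 for CKI at 1 mg/mL with 75 µM with library-size scaling, 7 between CKI doses with library-size scaling, and 1 for CKI at 1 mg/mL added to 75 µM with each of relative log expression factors, library-size scaling, no filter and the batch term. The batch term left 2 for CKI at 2 mg/mL added to 75 µM and 1 in the CKI interaction, which also had 1 with no filter. For these exceptions the cause was not tested.

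The fit without the 3 libraries apart, chosen after seeing the data, moved 16 counts: to 8 for gefitinib at 50 µM, 7 for CKI at 1 mg/mL, 6 for CKI at 2 mg/mL, 7 for CKI at 1 mg/mL with 50 µM, 5 and 4 for YFSJ at 2.5 and 5 mg/mL, 8 for each YFSJ dose with 50 µM, 7 between CKI doses, 5 for CKI at 1 mg/mL added to either gefitinib dose, 1 for YFSJ at 5 mg/mL added to either dose, 8 and 5 in the CKI and YFSJ interactions, and 0 for 24 h against 0 h, as with library 3 alone at 0 h (0). In both, SNHG7 (-0.056), SNHG15 (-0.14) and SNHG1 (-0.10) reversed for time. The common dispersion's square root was 0.102 with 48 and 0.0869 with 45 libraries.

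Leaving out 1 library at a time gave 4 to 5 hosts for gefitinib at 50 µM, 3 to 5 at 75 µM, 0 to 2 for CKI at 1 mg/mL and 1 to 3 at 2 mg/mL. For CKI at 1 mg/mL it gave 1 to 3 with 50 µM and 2 to 4 with 75 µM, and for 2 mg/mL 5 to 6 and 6 to 6. For YFSJ at 2.5 mg/mL it gave 4 to 5 with 50 µM and 4 to 6 with 75 µM, and for 5 mg/mL 2 to 4 and 3 to 5. It gave 3 to 9 for time, 4 to 6 between CKI doses and 1 to 3 in the CKI interaction. Against gefitinib alone it gave 1 to 1 and 0 to 2 for CKI at 1 mg/mL and 3 to 4 and 4 to 5 at 2 mg/mL with 50 and 75 µM, and 0 throughout for YFSJ alone, between gefitinib or YFSJ doses, for YFSJ added to gefitinib and for its interaction. Of 83 calls of single hosts 50 held in every such fit.

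Library-size scaling moved the median of all genes up by as much as 0.232 (CKI at 1 mg/mL with 50 µM), where 70.8% of called genes were then higher, beside 49.3%. Equal replicate numbers did not pair the samples in all but 1 of 26 comparisons: correlations of their deviations ran from -0.283 to 0.285 over 78 pairs. The exception was YFSJ at 5 against 2.5 mg/mL, where all 3 correlations were over 0.1 (0.115 to 0.285) and the replicate block also called 0 hosts. With the replicate block the CKI interaction still had 2 hosts; the block ended 1 host's call, SNHG12 with CKI at 2 mg/mL (0.65, adjusted p = 0.0515). All 10 hosts lay far above the floor of detection; the snoRNAs within them did not.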
